A study of Homo sapiens with 9 samples.

Results

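The immediate early genes are a small class of genes that cells transcribe within minutes of a growth factor, serum or stress signal, before any new protein has to be made. The 10 members described here were FOS, FOSB, FOSL1, JUN, JUNB, EGR1, EGR3, IER2, IER3 and DUSP1, chosen by symbol as serum and growth factor immediate early genes. Each symbol matched 1 Ensembl identifier among the 60683 gene identifiers counted in the files, and all 10 passed the filter on low counts in every comparison.

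Total RNA was sequenced from HEK293T cells, a standard laboratory line from human embryonic kidney transformed with viral genes, SV40 large T among them. The 9 libraries form 3 groups of 3 replicates. The parental cells carried no integrand. Clone 15 (low integrand expression) and clone 37 (high) were each derived from 1 sorted cell after piggyBac transposition of a NanoLuc construct, written in the labels as ATG-(CAG)60-Myc-NLuc with 60 CAG units, and a firefly luciferase construct, ATG-(CAG)0-Myc-FLuc, with 0. All 3 lines grew in DMEM with 10% fetal bovine serum, so the cells were in serum throughout and the labels give no starvation or stimulation step. The promoter of the integrands is not given in the sources used here. Each level of integrand expression was represented by 1 clone, so the level and any other difference between the clones cannot be told apart. The reads were 75 bp long in parental cells and clone 37 and 100 bp long in clone 15, so that an effect of read length and one of being clone 15 cannot be told apart either.

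Signals from receptor tyrosine kinases run through RAS, RAF, MEK and ERK to ternary complex factors that sit with serum response factor (SRF) on a short promoter element, the CArG box, while cyclic AMP and stress kinases act through CREB and ATF proteins on cyclic AMP response elements (CRE). FOS and JUN proteins then pair as the transcription factor AP-1, EGR proteins bind GC-rich sites through zinc fingers, and DUSP1 removes phosphate from MAP kinases and so closes the loop. The transcripts are typically short-lived, and many carry AU-rich elements in the 3′ untranslated region (UTR) that recruit decay factors. The labels give no time between feeding the cells and harvest.

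The promoters of FOS, EGR1 and DUSP1 are shown because these 3 genes differed from parental in both clones. Sequences came from RefSeq (GRCh38.p14), whose table held a promoter for 7 of the 10 members (FOS, FOSB, JUN, JUNB, EGR1, IER2 and DUSP1) and none for FOSL1, EGR3 and IER3. The FOS stretch is chr14:75278578-75278773 on the plus strand, from 250 to 55 bases before the RefSeq start site. The EGR1 stretch is chr5:138465229-138465478 on the plus strand, and the DUSP1 stretch is chr5:172771196-172771445 on the minus strand. Each is written 5′ to 3′ along the gene, and capitals mark the motifs searched: the CArG box, the CRE TGACGTCA, its half-site TGACG, the EGR site GCGNGGGCG, the AP-1 site TGANTCA and TATAAA, on both strands.
FOS: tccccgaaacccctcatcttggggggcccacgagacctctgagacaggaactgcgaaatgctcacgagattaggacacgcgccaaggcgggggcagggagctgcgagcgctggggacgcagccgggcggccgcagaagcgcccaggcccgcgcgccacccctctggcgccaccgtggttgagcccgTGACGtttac
EGR1: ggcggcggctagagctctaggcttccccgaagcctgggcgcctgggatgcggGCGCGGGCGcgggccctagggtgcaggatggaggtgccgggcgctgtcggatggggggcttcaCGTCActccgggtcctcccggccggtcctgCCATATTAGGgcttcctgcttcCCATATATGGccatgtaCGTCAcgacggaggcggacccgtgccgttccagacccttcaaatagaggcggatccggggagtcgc
DUSP1: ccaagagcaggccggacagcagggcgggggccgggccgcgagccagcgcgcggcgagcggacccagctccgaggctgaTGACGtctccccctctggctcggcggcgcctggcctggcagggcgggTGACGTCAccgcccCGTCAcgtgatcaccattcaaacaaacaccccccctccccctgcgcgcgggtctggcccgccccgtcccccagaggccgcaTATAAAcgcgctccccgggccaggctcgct
The half-site also lies within each full CRE, so a CRE match counts as 2 half-site matches as well.

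EGR1 carried 2 CArG boxes, at -105 to -96 and -83 to -74 from the start site, an element found in 407 of 35116 promoters (1.16%) in the 250 bases before the start. It also carried an EGR site at -198 to -190, found in 8.41% of promoters. DUSP1 carried a full CRE at -125 to -118, found in 578 promoters (1.65%), with further half-sites at -172 to -168 and -111 to -107. The half-site TGACG was present in all 7 promoters in the table, including that of FOS at -64 to -60, against 21.2% of all promoters. All 250 bases of the JUN window, its half-site among them, lie in exons of GENCODE 29, as do 54 bases of the FOS window. TATAAA lay within 33 bases of the start in FOS, FOSB, JUNB and DUSP1, against 10.7% of promoters holding it anywhere in the window. None of the 7 windows held the AP-1 site, which 6.57% of promoters held. These matches describe letters in a window and not binding. Bases further upstream were not searched, so an element missing here may lie beyond the window, and the counts hold for the window only.

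**Figure D1:**
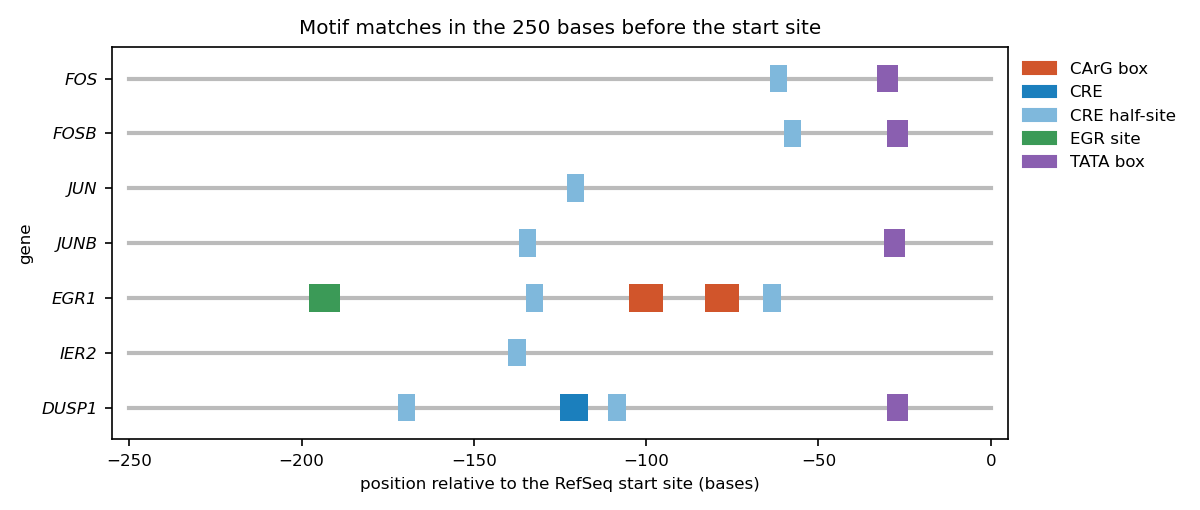
Positions of motif matches in the 250 bases before the RefSeq start site (0 on the axis, in bases) for the 7 members with a promoter in the table. Each block spans 1 match on either strand; the 2 CArG boxes are in EGR1, the full CRE is in DUSP1, and every row has at least 1 CRE half-site.

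The 3′ UTRs differed in AU-rich content, and the windows below show the heptamer TATTTAT in the 3 genes with the densest ATTTA pentamers and in JUN, the most abundant member. TATTTAT was present in 6 of 10 members (60%), against 36.4% of 12947 protein-coding genes with a mean of at least 1 CPM (counts scaled so that the genes of every library sum to the same total). The windows are 28 bases of GRCh38, written along the transcript with the heptamer in capitals: FOS at chr14:75282061-75282088 (plus strand), IER3 at chr6:30743653-30743680 (minus), DUSP1 at chr5:172768643-172768670 (minus) and JUN at chr1:58780819-58780846 (minus).
FOS: gtttttaattTATTTATtaagatggatt
IER3: tcctaattaaTATTTATatgTATTTATg
DUSP1: ggctggtcctTATTTATttaacttcacc
JUN: tgcttatgaaTATTTATaacagcattct
The IER3 window holds the heptamer at 2 positions. FOS had 5 ATTTA pentamers in 806 bases of 3′ UTR (6.20 per kb), IER3 6 in 903 bases (6.64 per kb) and DUSP1 4 in 672 bases (5.95 per kb), which placed these 3 above 95.2% to 96.8% of genes, whereas IER2 had 0 in 1050 bases. The density ranged from 0 to 6.64 per kb among the members, with a median of 1.86 beside 1.70 for all 12947 genes. The nonamer TTATTTATT was present in FOS (1 copy) and DUSP1 (2 copies), 20% of members against 9.62% of genes.

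The members were compact genes. Their median span was 3683 bp (1356 to 8525 bp) against 34864 bp for expressed protein-coding genes, and they had a median of 2.5 exon blocks against 11. JUN (ENSG00000177606, chr1:58780788-58784327, minus strand), JUNB (ENSG00000171223, chr19:12791496-12793315, plus) and IER3 (ENSG00000137331, chr6:30743199-30744554, minus) are single blocks of exon in GENCODE 29. FOS (ENSG00000170345, chr14:75278774-75282230, plus) has 3 blocks, EGR1 (ENSG00000120738, chr5:138465490-138469315, plus) 2 and DUSP1 (ENSG00000120129, chr5:172768090-172771195, minus) 4. FOSB (ENSG00000125740) and IER2 (ENSG00000160888) lie at chr19:45467995-45475179 and chr19:13150415-13154908 on the plus strand, FOSL1 (ENSG00000175592) at chr11:65892049-65900573 on the minus strand, and EGR3 is ENSG00000179388. No 75-base word of a member's longest transcript was shared with another gene on the same strand. On the opposite strand, annotated exons overlap JUNB, EGR3, IER2 and IER3, so counts by strand matter for those 4.

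Gene counts on the transcript strand summed to 10809034 to 13902872 in parental libraries, 18654063 to 38093340 in clone 15 and 10334090 to 12352171 in clone 37, and the share of read pairs mapping to several places was 11.9% to 14%, 4.59% to 5.98% and 10.4% to 11.7%. The 5 HEK293T markers checked (VIM, KRT8, KRT18, PAX2 and LIN28B) were detected in every group and summed to 690 to 796.8 CPM in parental, 789 to 807.9 in clone 15 and 812.1 to 874.9 in clone 37. The 5 fibroblast markers (COL1A1, COL1A2, DCN, LUM and PDGFRB) summed to 35.6 to 38.1 CPM in parental and 19.2 to 21.3 in clone 37, with COL1A2 at 0 in both. In clone 15 all 5 were detected and they summed to 54.9, 75.0 and 169.2 CPM in replicates 1, 2 and 3, with COL1A1 at 48.3, 61.4 and 108.2 CPM and COL1A2 at 5.59, 12.2 and 56.8 CPM. The higher sum came from these 2 genes, while LUM was lower, at a mean of 0.871 CPM against 2.14 in parental. By edgeR the LUM fall passed (-1.43, SE 0.38, adjusted p = 0.00271) and the COL1A1 and COL1A2 differences did not (adjusted p = 0.0799 and 0.171). The endothelial markers summed to 0.647 to 0.740 CPM in parental (CDH5 and VWF at 0), 1.61 to 2.84 in clone 15 (none of 4 at 0) and 0.891 to 1.26 in clone 37 (CDH5 at 0), and the 4 blood markers to 0.463 CPM at most. Nothing in the labels says that replicates came from separate cultures, so p-values measure the spread between these libraries, which may be technical. In bulk RNA, fewer cells expressing a gene and less RNA per cell cannot be told apart.

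FOS was the member furthest from parental. It encodes the AP-1 subunit that gives the family its name and whose transcript is the classic marker of recent stimulation. It stood at 8.33, 9.93 and 6.20 CPM in parental replicates 1, 2 and 3, at 1.39, 1.71 and 1.88 CPM in clone 15 and at 1.10, 1.74 and 1.21 CPM in clone 37. Every library of both clones was far below every parental library, while the clones overlapped each other. These levels rest on 81 to 138 counts per parental library, 35 to 53 in clone 15 and 12 to 18 in clone 37.

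In edgeR's quasi-likelihood test with Benjamini-Hochberg adjustment over all genes tested, FOS was 6.17-fold lower in clone 37 than in parental (log2 fold change -2.62, SE 0.25, 95% interval -3.15 to -2.10, adjusted p = 1.27e-07). It was 5.13-fold lower in clone 15 (-2.36, SE 0.22, interval -2.82 to -1.90, adjusted p = 3.38e-09). Its change was larger in size than that of 99% of tested genes in clone 37 and of 98.7% in clone 15. Between the clones the difference did not pass the test (clone 37 minus clone 15, -0.28, SE 0.29, interval -0.88 to 0.33, adjusted p = 0.438). Both comparisons with parental use the same 3 parental libraries. Without clone 15 replicate 3, which had the highest fibroblast marker sum, the clone 15 value was -2.43. The remaining clone 15 replicates 1 and 2 also had marker sums above parental (54.9 and 75.0 against 35.6 to 38.1 CPM). The part of these markers in the FOS value was not tested.

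The other FOS family genes moved less. FOSB, a FOS relative whose splice forms accumulate in stimulated neurons, was at 3.15, 3.02 and 2.45 CPM in parental, 1.73, 2.80 and 2.25 CPM in clone 15 and 1.74, 1.55 and 1.62 CPM in clone 37. All 3 clone 37 libraries lay below all parental ones, and clone 15 overlapped parental. FOSB fell in clone 37 (log2 fold change -0.83, SE 0.25, edgeR adjusted p = 0.0104), a call that DESeq2 did not make (-0.86, adjusted p = 0.0574). In clone 15 its value was -0.39 (SE 0.26, interval -0.92 to 0.13, adjusted p = 0.207), and -0.55 to -0.19 when 1 library was left out. The clones did not differ past the threshold (clone 37 minus clone 15, -0.44, interval -0.99 to 0.11, adjusted p = 0.159), and without clone 15 replicate 1 they did (-0.63, adjusted p = 0.0478).

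FOSL1 encodes FRA1, an AP-1 subunit that often follows sustained ERK activity. It was at 2.59, 1.87 and 1.76 CPM in parental, 1.63, 2.15 and 1.77 CPM in clone 15 and 1.64, 1.16 and 1.78 CPM in clone 37, and the 3 groups overlapped. Against parental its log2 fold change was -0.43 (SE 0.29, interval -1.04 to 0.18, edgeR adjusted p = 0.22) in clone 37 and -0.19 (SE 0.27, interval -0.75 to 0.37, adjusted p = 0.588) in clone 15. These values rest on 12 to 62 counts per library. Leaving out 1 library gave -0.59 to -0.27 in clone 37 and -0.32 to -0.04 in clone 15. Unstranded counts gave -0.019 and -0.015, and none of these values was called.

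**Figure D2:**
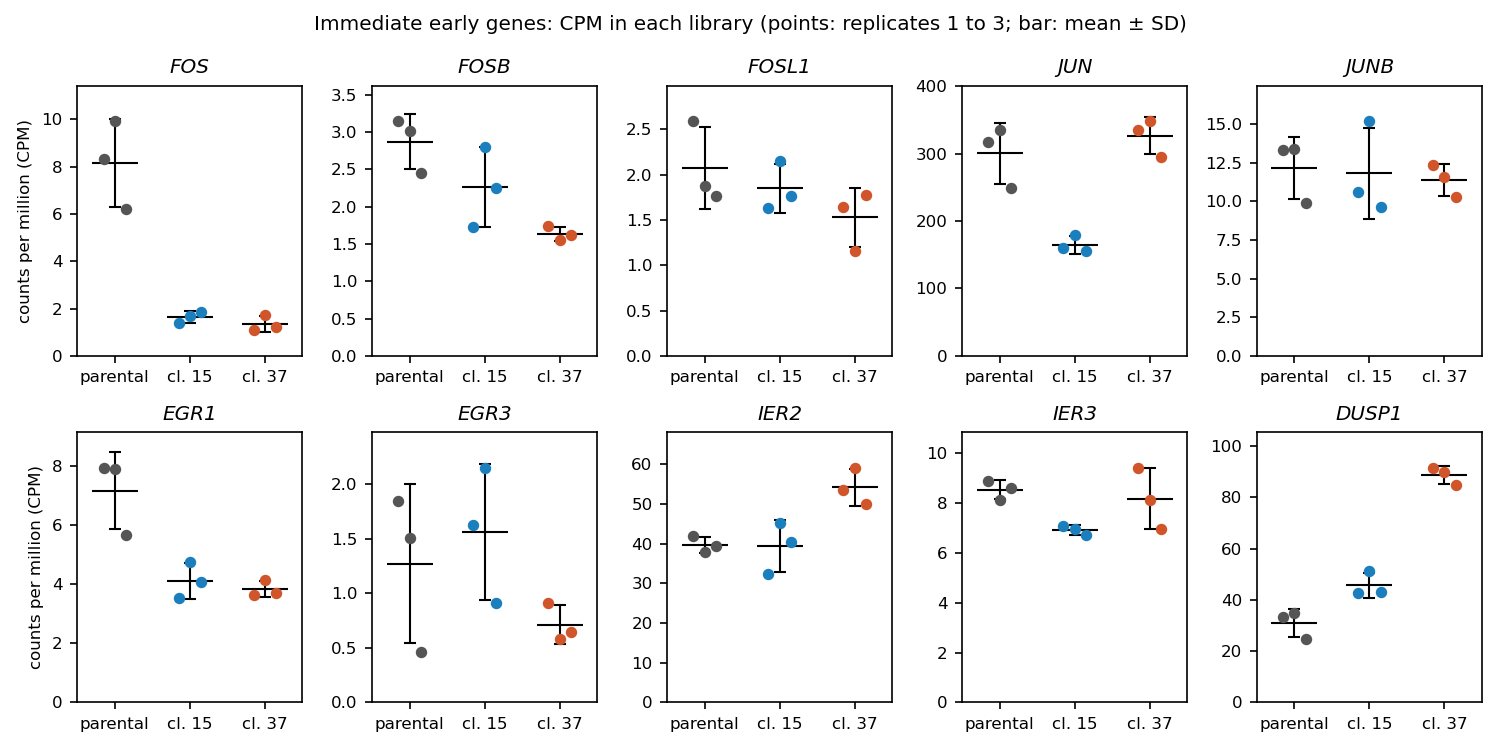
CPM (vertical axes, starting at 0 and scaled per gene) of the 10 immediate early genes in parental cells, clone 15 and clone 37. Points are replicates 1 to 3 from left to right and bars are the mean ± SD; FOS and EGR1 are low in both clones, the JUN points of clone 15 lie below those of both other groups, and DUSP1 is ordered parental, clone 15, clone 37.

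JUN, the core DNA-binding partner of FOS, separated the clones from each other. It was at 317, 335.5 and 249.3 CPM in parental, 159.7, 179.9 and 155.2 CPM in clone 15 and 335.2, 348 and 295.3 CPM in clone 37. The clone 15 libraries lay below all other libraries, and the clone 37 libraries overlapped the parental ones. JUN was 1.87-fold lower in clone 15 than in parental (log2 fold change -0.90, SE 0.11, interval -1.12 to -0.68, edgeR adjusted p = 8.92e-07). In clone 37 the difference from parental was 0.09 (SE 0.11, interval -0.17 to 0.35, adjusted p = 0.537), and without parental replicate 3 it was -0.07. Between the clones JUN was 1.98-fold higher in clone 37 (0.99, SE 0.06, interval 0.86 to 1.11, adjusted p = 2.21e-13). Without clone 15 replicate 3 the fall in clone 15 was -0.84 and the difference between the clones 0.94.

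JUNB, a JUN relative that can restrain JUN activity, was at 13.3, 13.4 and 9.87 CPM in parental, 10.6, 15.2 and 9.65 CPM in clone 15 and 12.3, 11.6 and 10.3 CPM in clone 37. The groups overlapped in all 3 comparisons. Its log2 fold change was -0.12 (SE 0.14, interval -0.41 to 0.17, edgeR adjusted p = 0.474) in clone 37 and -0.08 (SE 0.17, interval -0.42 to 0.27, adjusted p = 0.724) in clone 15. Changes beyond 1 in either direction on the log2 scale, such as those of FOS, lie outside both intervals. FOS and JUN thus both fell in clone 15. In clone 37 FOS was low, whereas JUN did not differ from parental past the threshold.

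EGR1, a zinc finger factor induced through SRF, was lower in both clones. It was at 7.96, 7.91 and 5.66 CPM in parental, 3.54, 4.75 and 4.07 CPM in clone 15 and 3.65, 4.16 and 3.72 CPM in clone 37. No clone library reached the lowest parental library, and the clones overlapped. EGR1 was 1.90-fold lower in clone 37 (log2 fold change -0.92, SE 0.19, interval -1.32 to -0.53, edgeR adjusted p = 0.000439) and 1.79-fold lower in clone 15 (-0.84, SE 0.19, interval -1.23 to -0.45, adjusted p = 0.000635). The clones differed by -0.09 (SE 0.19, interval -0.47 to 0.30, adjusted p = 0.711).

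EGR3, an EGR1 relative that acts later and is itself an EGR target, was the scarcest member per kilobase in each group and had the widest spread in parental cells and clone 15. It was at 1.85, 1.51 and 0.459 CPM in parental, 1.63, 2.15 and 0.911 CPM in clone 15 and 0.913, 0.581 and 0.648 CPM in clone 37, on 6 to 62 counts per library. All 3 pairs of groups overlapped. EGR3 was lower in clone 37 than in clone 15 by edgeR (log2 fold change -1.15, SE 0.37, interval -1.90 to -0.39, adjusted p = 0.00912), but DESeq2 did not call it (-1.13, adjusted p = 0.0686). Against parental its value was -0.83 (SE 0.46, interval -1.79 to 0.14, adjusted p = 0.137) in clone 37, while in clone 15 it was 0.31 (SE 0.39, interval -0.51 to 1.13, adjusted p = 0.54). Both values moved with single libraries. Without parental replicate 3 the clone 37 value was -1.28 and was called (adjusted p = 0.00866), and the clone 15 value was -0.13. Without parental replicate 1 the clone 37 value was -0.51 and the clone 15 value 0.60. The clone 15 value was also 0.51 without parental replicate 2, 0.07 without clone 15 replicate 2 and 0.56 without clone 15 replicate 3, and none of these clone 15 values was called.

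IER2, a nuclear protein named for its early induction, rose in clone 37. It was at 41.9, 37.8 and 39.4 CPM in parental, 32.3, 45.3 and 40.4 CPM in clone 15 and 53.4, 59.1 and 49.9 CPM in clone 37. All clone 37 libraries lay above all others, and clone 15 spanned the parental range. IER2 was 1.34-fold higher in clone 37 than in parental (log2 fold change 0.42, SE 0.07, interval 0.26 to 0.58, edgeR adjusted p = 0.00013) and 1.39-fold higher than in clone 15 (0.47, SE 0.10, interval 0.26 to 0.69, adjusted p = 0.000884). On unstranded counts the second difference was 0.46 and did not pass (adjusted p = 0.337). In clone 15 against parental its value was -0.05 (SE 0.10, interval -0.26 to 0.16, adjusted p = 0.716).

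IER3, an early response gene linked to survival signalling, was at 8.88, 8.13 and 8.57 CPM in parental, 7.09, 6.94 and 6.70 CPM in clone 15 and 9.41, 8.13 and 6.96 CPM in clone 37. The clone 15 libraries lay below the parental libraries, and clone 37 overlapped both other groups. The difference in clone 15 was small and missed the threshold (log2 fold change -0.33, SE 0.15, interval -0.63 to -0.02, unadjusted p = 0.0351 and adjusted p = 0.0652 by edgeR). With trends in GC content and length removed, a setting added after the data were seen, it passed (-0.52, adjusted p = 0.00398). In clone 37 it was -0.09 (SE 0.15, interval -0.40 to 0.22, adjusted p = 0.627). Between the clones IER3 differed by 0.24 (interval -0.05 to 0.53, adjusted p = 0.155), and by 0.39 (adjusted p = 0.0151) with those trends removed.

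DUSP1, the phosphatase that inactivates p38, JNK and ERK and the negative regulator among the members, moved opposite to FOS. It was at 33.2, 34.96 and 24.7 CPM in parental, 42.8, 51.5 and 43.1 CPM in clone 15 and 91.6, 89.9 and 84.8 CPM in clone 37. The 3 groups did not overlap, and their order was that of the labelled integrand expression, which 1 clone per level cannot separate from clone identity. DUSP1 was 2.82-fold higher in clone 37 than in parental (log2 fold change 1.49, SE 0.11, interval 1.26 to 1.73, edgeR adjusted p = 1.84e-07). In clone 15 it was 1.44-fold higher (0.53, SE 0.12, interval 0.28 to 0.78, adjusted p = 0.00124), with values between 0.36 and 0.66 across the alternative settings. Clone 37 exceeded clone 15 by 1.95-fold (0.96, SE 0.07, interval 0.82 to 1.10, adjusted p = 1.9e-12). The change in clone 37 was larger in size than that of 96.1% of tested genes, and that in clone 15 larger than 67.7%.

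**Figure D3:**
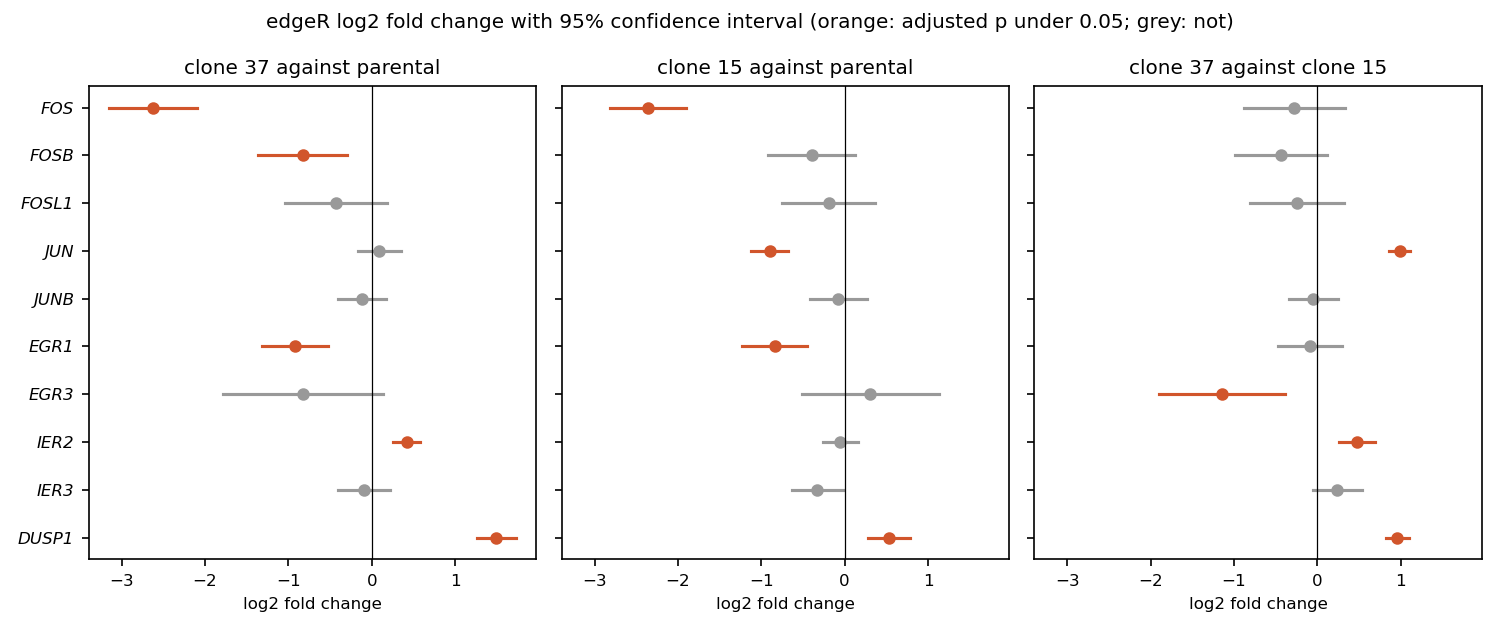
Fitted log2 fold change (horizontal axis) of each member with its 95% interval in the 3 comparisons; orange marks an adjusted p under 0.05 and grey the rest. FOS lies at -2.62 and -2.36 against parental, DUSP1 at 1.49 and 0.53, and JUN at 0.09 in clone 37 but -0.90 in clone 15.

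Counted together, 5 of the 10 members passed the test in clone 37 against parental, where 54.0% of all 16501 genes tested passed: IER2 and DUSP1 were higher (26.7% of all genes were) and FOS, FOSB and EGR1 lower (27.3%). In clone 15 against parental 4 of 10 passed, against 51.4% of 17703 genes: DUSP1 was higher (25.1% of all genes) and FOS, JUN and EGR1 lower (26.2%). Between the clones 4 of 10 passed, against 57.7% of 17712 genes: JUN, IER2 and DUSP1 were higher in clone 37 (28.7% of all genes) and EGR3 lower (29.0%). The number of members called was therefore near or below the background in each comparison and is no result about the class. With no filter on low counts 27.3%, 25.8% and 30.4% of all genes were called, beside 5, 4 and 4 of the 10 members. The genes tested rose far more than the calls: in clone 37 against parental 8949 of 32740 were called, against 8903 of 16501 with the filter. All 10 members passed the filter, so their lying above that share is no result about the class either. The median log2 fold change of the members was -0.28 in clone 37 (0.02 over all genes), -0.26 in clone 15 (0.02) and -0.07 between the clones (0.00). The median size of change was 0.63 in clone 37 against 0.32 over all genes, while in clone 15 it was 0.36 for both and between the clones 0.36 against 0.35. The CPM ranges of clone 37 and parental libraries did not overlap for 5 members, as for 61.7% of all genes: IER2 and DUSP1 above (33.1% of all genes) and FOS, FOSB and EGR1 below (28.6%). Those of clone 15 and parental did not overlap for 5 members, as for 59.5% of all genes: DUSP1 above (31.5%) and FOS, JUN, EGR1 and IER3 below (28.0%). Those of the clones did not overlap for JUN, IER2 and DUSP1, all higher in clone 37, beside 63.5% of all genes (31.5% higher and 32.1% lower). Without clone 15 replicate 3, 4 members were called in both comparisons that include clone 15, and against parental EGR1 was at -0.82 and DUSP1 at 0.59 on the log2 scale.

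**Figure D4:**
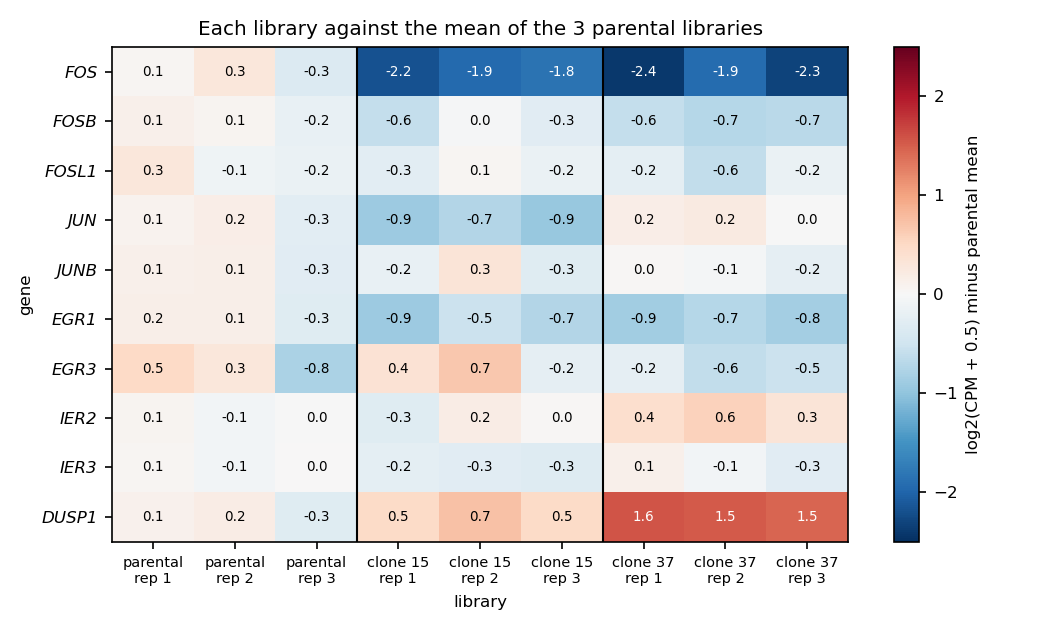
Log2(CPM + 0.5) of each member (rows) in each library (columns) minus the mean of the 3 parental libraries, with the value in each cell. FOS is between -2.4 and -1.8 in all 6 clone libraries, DUSP1 between 0.5 and 0.7 in clone 15 and 1.5 and 1.6 in clone 37, and JUN between -0.9 and -0.7 in clone 15 and 0.0 and 0.2 in clone 37.

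Levels of different genes were compared as CPM per kilobase of annotated exon. JUN stood first in every group, at 84.9 CPM per kb in parental, 46.6 in clone 15 and 92.1 in clone 37. DUSP1 followed at 15.3, 22.7 and 44.0 CPM per kb and IER2 at 12.9, 12.8 and 17.6. DUSP1 and IER2 overlapped between libraries in parental cells and were apart in both clones. The level of JUN was 5.54 times that of DUSP1 in parental cells, 2.06 times in clone 15 and 2.10 times in clone 37. In clone 15 JUN was lower and DUSP1 higher than in parental, whereas in clone 37 only DUSP1 of this pair had changed past the threshold.

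JUNB (6.70 CPM per kb in parental, 6.49 in clone 15 and 6.27 in clone 37) and IER3 (6.29, 5.10 and 6.02) came next and overlapped in parental cells and clone 37. FOS and EGR1 followed in parental cells at 2.52 and 2.29 CPM per kb, and their libraries overlapped. In the clones EGR1, at 1.31 and 1.23 CPM per kb in clones 15 and 37, and FOSL1, at 0.980 and 0.810, ranked above FOS, which was at 0.512 and 0.417. FOSB (0.517, 0.407 and 0.294 CPM per kb in parental, clone 15 and clone 37) and EGR3 (0.262, 0.322 and 0.147) were lowest. FOS and FOSB overlapped in clone 15, as did FOSB and EGR3, and EGR1 and FOSL1. FOS thus lay below EGR1 and FOSL1 in both clones and above both in mean in parental cells.

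The summed level of the 10 genes was dominated by JUN. It was 438.2, 454 and 348.3 CPM in parental, 262.4, 312.3 and 265.9 CPM in clone 15 and 511, 525.9 and 456.1 CPM in clone 37. Without JUN, the other 9 genes summed to 112.9 ± 12.1 CPM in parental libraries (SD, n = 3 here and next), 115.3 ± 15.4 in those of clone 15 and 171.5 ± 9.30 in those of clone 37, so that clone 15 was within the spread of parental and clone 37 was above it. DUSP1 carried most of that rise, from a mean of 30.9 to 88.8 CPM, with IER2 next, from 39.7 to 54.1 CPM.

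Replicates of the members spread more widely than those of most genes. The median SD of log2(CPM + 0.5) over the 3 replicates was 0.24 for the members against 0.13 for 17606 genes in parental, 0.18 against 0.11 in clone 15 and 0.13 against 0.09 in clone 37. The members with an SD above that median numbered 8, 9 and 7 of 10. EGR3 had the widest spread in parental (0.69, above 99.4% of genes) and clone 15 (0.46, above 97.8%), on 6 to 62 counts per library. IER3 was tight at 0.06 and 0.04 in those groups. JUN, with the most counts of the members in every library, had 0.23 in parental cells, 0.11 in clone 15 and 0.12 in clone 37, above 73.8%, 50.2% and 62.8% of genes. The genes were not matched on level here.

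Parental replicate 3 was the lowest of its group for 8 of the 10 genes, all except IER2 and IER3, and the highest for 0, whereas over 17606 genes it was the lowest for 26.0% and the highest for 35.7%. Clone 15 replicate 2 was the highest of its group for 8 genes and the lowest for 0, the exceptions being FOS and IER3, against 40.6% and 32.4% of all genes. The calls listed above for FOS, EGR1, JUN and DUSP1 held without either library, while the EGR3 values against parental changed as given above. Over all genes it was parental replicate 2 that stood apart in its group: a chi-square per degree of freedom of 11.45 and 11.57 separated it from replicates 1 and 3, which differed by 1.99, and 19.2% of its read pairs had no feature against 26.4% and 28.8%. In clone 15 it was replicate 2, at 9.97 and 8.20 against 4.53 for replicates 1 and 3. Parental replicate 2 was the highest parental library for FOS, JUN, JUNB and DUSP1, and without it 5 and 4 members were still called in clones 37 and 15. The part of these differences between libraries in the order of the members was not tested.

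For FOS, JUN and EGR1 the protein-coding genes with the most similar profiles were sought among 11304 genes with a mean of at least 5 CPM, by the root mean square (RMS) difference of centred log2(CPM + 0.5) values over the 9 libraries. The genes nearest to FOS were DDIT4, a stress-induced inhibitor of mTORC1 (RMS 0.217), and VAMP8, a vesicle fusion protein (0.229), where the median gene was at 1.05. DDIT4 was at 287 ± 27.4 CPM in parental libraries, at 69.0 ± 6.21 in those of clone 15 and at 49.3 ± 8.59 in those of clone 37 (mean and SD of 3 libraries), low in both clones as FOS was. For 41.8% of its 75-base words a match exists in another gene, on the opposite strand, and 0.0% on its own.

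VAMP8 had 12.7 ± 0.722 CPM in parental, 3.30 ± 0.430 in clone 15 and 2.86 ± 0.461 in clone 37. The genes nearest to JUN were NTAQ1, an amidase acting on N-terminal glutamine (RMS 0.0841, means of 11.7, 6.02 and 13.1 CPM in parental, clone 15 and clone 37), and CDT1, the replication licensing factor (0.102, means of 178, 101 and 183 CPM), against a median of 0.497. Those nearest to EGR1 were ECEL1, a membrane endopeptidase-like protein (RMS 0.118, means of 11.6, 6.44 and 6.14 CPM), and NIPSNAP1, a mitochondrial protein (0.119, means of 131, 79.0 and 79.9 CPM), against 0.457. The 9 libraries fall into 3 groups, so the likeness rests largely on 3 group means, and none of the 6 genes belongs to the list of other immediate early genes used here.

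Other immediate early genes were followed in a list of 31, of which 28 were tested in clone 37 and 29 in clone 15. In clone 37 against parental 9 were higher, 9 lower and 10 not called, so that 64.3% were called beside 54.0% of all genes, with a median log2 fold change of 0.07 beside 0.02. The largest increases that passed were in ARC, a synaptic activity gene (5.47 ± 1.10 against 2.06 ± 0.734 CPM, log2 fold change 1.38, SE 0.26, edgeR adjusted p = 0.000224), and CCN2, a secreted matricellular protein (1.12, SE 0.23). NR4A2, an orphan nuclear receptor (-0.78, SE 0.20), and ZFP36L1, which binds AU-rich elements and promotes decay (-0.71, SE 0.09), fell. In clone 15, 6 were higher, 13 lower and 10 not called (65.5% called beside 51.4% of all genes), with a median of -0.14. CCN2 (1.59, SE 0.21) and the kinase gene SGK1 (0.83, SE 0.18) rose there, and TRIB1, a pseudokinase (-1.03, SE 0.09), and KLF10, a zinc finger repressor (-0.98, SE 0.09), fell. NR4A2 and ZFP36L1 were also lower in clone 15 (-0.67, SE 0.21 and -0.30, SE 0.09), and KLF10 and TRIB1 in clone 37 (-0.44, SE 0.08 and -0.17, SE 0.07). ARC in clone 15 (0.33, SE 0.30, adjusted p = 0.37) and SGK1 in clone 37 (0.33, SE 0.19, adjusted p = 0.159) did not pass.

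Among 12 other AP-1 and related bZIP genes 11 were tested. In clone 37, 2 were higher and 5 lower (median -0.01), and in clone 15, 1 was higher and 6 lower (median -0.20). The share called was 63.6% in each, where 26.7% of all genes were higher and 27.3% lower in clone 37 and 25.1% and 26.2% in clone 15. JDP2, which represses AP-1 targets as a dimer with JUN, had the largest fall in clone 37, from 20.1 ± 1.71 to 5.04 ± 1.17 CPM (log2 fold change -2.03, SE 0.15, edgeR adjusted p = 3.67e-09), and also fell in clone 15 (-0.43, SE 0.11). ATF3, a stress-induced bZIP protein, fell in both clones (-1.11, SE 0.11 in clone 37 and -1.43, SE 0.11 in clone 15). MAFG, a small MAF protein, rose in both (0.62, SE 0.08 and 0.54, SE 0.09). JUND, the JUN relative that is expressed without stimulation, rose in clone 37 (0.60, SE 0.08) and was at -0.20 (SE 0.12, adjusted p = 0.165) in clone 15. The small MAF gene MAFF fell in both clones (-0.71, SE 0.29, adjusted p = 0.0469 in clone 37 and -1.30, SE 0.29 in clone 15).

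Upstream of the members, 27 genes for receptors, RAS, kinases and transcription factors were tested: 8 were higher and 6 lower in clone 37 (median 0.02), and 8 higher and 10 lower in clone 15 (median -0.10). The share called was 51.9% in clone 37, beside 54.0% of all genes, and 66.7% in clone 15, beside 51.4%. The EGF receptor gene EGFR fell in both clones, from 57.3 ± 3.75 CPM to 31.2 ± 0.866 in clone 37 (log2 fold change -0.91, SE 0.08, edgeR adjusted p = 2.37e-08) and to 26.6 ± 1.88 in clone 15 (log2 fold change -1.14, SE 0.10, adjusted p = 4.22e-10). The ERK-activated kinase gene RPS6KA2 fell in both as well (-1.12, SE 0.08 and -0.85, SE 0.09). HRAS rose in both (0.61, SE 0.09 and 0.77, SE 0.10). SRF also rose in both, by 0.28 (SE 0.07) in clone 37 and by 0.56 (SE 0.10; 82.9 ± 12.2 against 54.9 ± 4.04 CPM) in clone 15. ELK4, an SRF partner, rose in clone 37 (0.52, SE 0.07) and fell in clone 15 (-0.38, SE 0.08).

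Feedback and delayed outputs of ERK were a list of 18, with 15 tested in clone 37 (4 higher, 3 lower, median 0.02) and 17 in clone 15 (3 higher, 3 lower, median 0.08). The shares called, 46.7% and 35.3%, were below the 54.0% and 51.4% of all genes. DUSP5, a nuclear phosphatase for ERK, rose in both clones (log2 fold change 0.94, SE 0.16 in clone 37 and 0.55, SE 0.17 in clone 15). The related DUSP4 rose in clone 15 from 7.64 ± 0.774 to 28.4 ± 0.944 CPM (1.86, SE 0.12, edgeR adjusted p = 5.57e-12) and was at -0.06 (SE 0.15, adjusted p = 0.747) in clone 37. SPRY2, an inhibitor of receptor tyrosine kinase signalling (-1.17, SE 0.12), and the ETS factor ETV1 (-1.12, SE 0.25) fell in clone 37, where the receptor gene EPHA2 rose (0.91, SE 0.10). In clone 15 these 3 were at 0.03, -0.35 and 0.25 and did not pass. CCND1, the gene for cyclin D1, fell in clone 15 from 59.1 ± 3.01 to 23.5 ± 2.65 CPM (-1.37, SE 0.10, adjusted p = 2.04e-11), and rose in clone 37 (0.81, SE 0.06, adjusted p = 7.61e-09). EPHA4 fell in both clones (-1.03, SE 0.08 in clone 37 and -0.92, SE 0.09 in clone 15).

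The actin-linked branch of SRF, driven by MRTF cofactors, was represented by 14 genes, 11 of them tested. In clone 37, 3 were higher and 3 lower (median 0.07), and in clone 15, 4 were higher and 2 lower (median 0.18), a share called of 54.5% in each beside 54.0% and 51.4% of all genes. ACTA2 and FHL1 fell in both clones (ACTA2 -0.90, SE 0.19 and -1.30, SE 0.20; FHL1 -0.66, SE 0.07 and -0.38, SE 0.09, in clones 37 and 15). CNN2 rose in both clones (1.04, SE 0.08 in clone 37 and 0.59, SE 0.10 in clone 15). ANKRD1, a gene of low level, rose in clone 37 from 0.661 ± 0.0239 to 2.28 ± 0.316 CPM (1.75, SE 0.31). In clone 15 it was at 0.90 (SE 0.39, adjusted p = 0.0592). The actin cross-linker FLNA (0.93, SE 0.10) and TAGLN (0.85, SE 0.22) rose in clone 15, where the summed fibroblast markers were also higher through COL1A1 and COL1A2, with LUM lower. Their part in these values was not tested.

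In clone 37 against clone 15, where 57.7% of all genes were called (28.7% higher and 29.0% lower), the other immediate early genes had 11 higher, 6 lower and 12 not called (median 0.12, beside 0.00 for all genes). The other AP-1 and related bZIP genes had 6 higher and 1 lower (median 0.27), the upstream genes 8 and 9 (0.06), the ERK outputs 6 and 6 (-0.01) and the MRTF-SRF genes 2 and 4 (0.02).

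**Figure D5:**
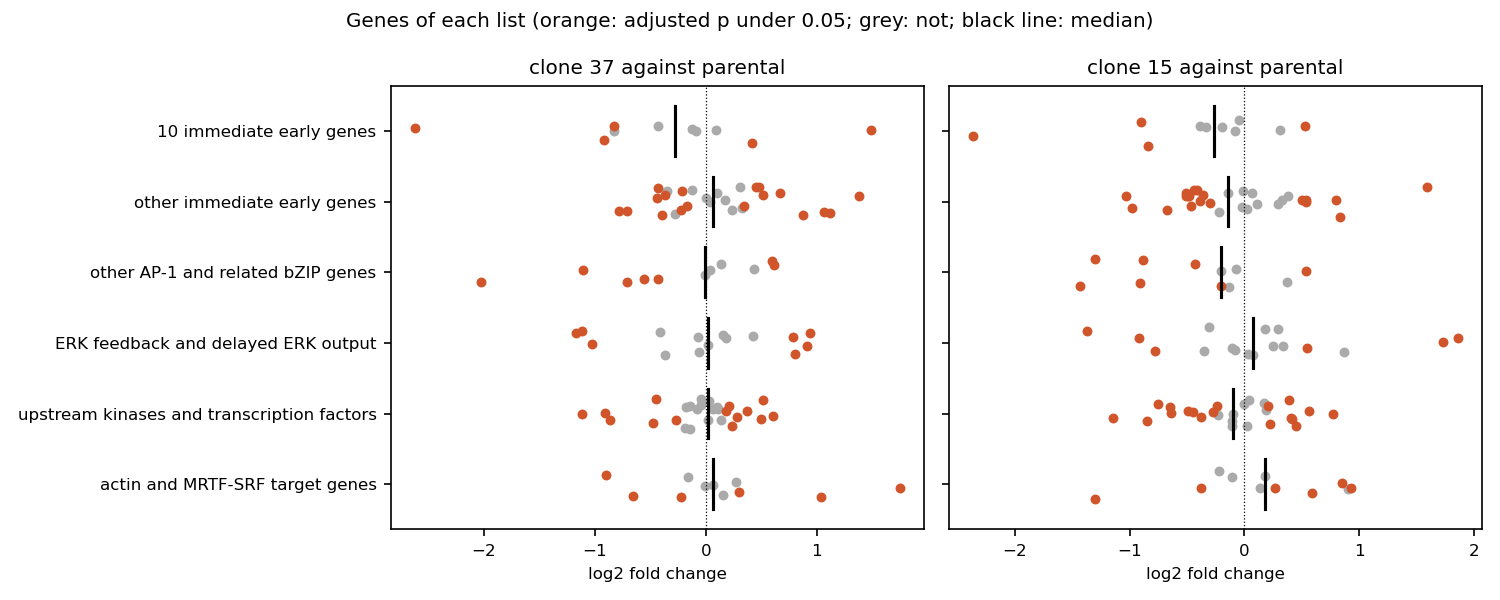
Log2 fold change (horizontal axis) of every tested gene in the 10 members and the 5 related lists, in clone 37 and clone 15 against parental; orange points passed the test and the black line is the list's median. Points lie on both sides of 0 in every list, and FOS is the lowest point in each panel.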

How the data were processed

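Total RNA, depleted of ribosomal RNA, was sequenced as 9 directional libraries (500 ng input, 13 amplification cycles), per the labels' protocols. The values deposited by the authors are raw gene counts in STAR's layout, and the submitters' processing notes name FastQC 0.11.9, STAR 2.7.10a and hg38. The annotation release behind the counts is not given in the sources used here. Such counts leave out reads that map to several places. The column for the transcript strand was used, since it held 92.6% to 94.0% of stranded gene counts. Summary entries stayed out of library sizes: 19.2% to 34.6% of read pairs had no feature, 4.59% to 14% were multimapping, 3.76% to 4.40% ambiguous and 1.24% to 5.16% unmapped, which left 50.9% to 59.7% assigned.

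Each pair of groups was fitted on its 6 libraries with edgeR 4.0.16 (R 4.3.3): filterByExpr, TMM, robust glmQLFit and glmQLFTest, with Benjamini-Hochberg adjustment over all genes tested and calls at an adjusted p under 0.05. SE is the log2 fold change over the square root of F, and intervals cover 95%. CPM divides a gene's counts by the library's gene counts on the transcript strand, with the usual scaling. No replicate pair agreed within sampling noise. The test was checked on simulated data in which every gene had the same spread beyond counting noise. The check therefore does not cover genes with a wider spread. Alternatives were RLE size factors, DESeq2 1.42.0, 1 joint fit of the 9 libraries, other filters, counts without strand, thinning to equal depth, a replicate block, protein-coding genes alone and each replicate left out. Removal of GC and length trends was added after the data were seen. Positions, lengths and 3′ UTRs came from GENCODE 29 (GRCh38), promoters from RefSeq (GRCh38.p14), and 58496 gene identifiers matched GENCODE. Tables were made with Python 3.11.15, pandas 2.3.3 and numpy 2.4.6.

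The members, lists and tests were chosen with earlier results of these data known. Beside the members, the text names in each comparison with parental the 2 called higher and 2 called lower genes of each list with the largest change and a mean of at least 1 CPM, and for FOS, JUN and EGR1 the 2 genes of nearest profile. FOSL2 was added after the data were seen, as a FOS relative.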

Additional observations from a re-analysis of the deposited data

Results flagged for a closer look

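The effect of clone 37 differed from that of clone 15 for 4 members, by the direct edgeR comparison of the clones with Benjamini-Hochberg adjustment, in which 57.7% of all genes were called. The difference in log2 fold change (clone 37 minus clone 15) was 0.99 for JUN (adjusted p = 2.21e-13), 0.96 for DUSP1 (1.9e-12), 0.47 for IER2 (0.000884) and -1.15 for EGR3 (0.00912). JUN, DUSP1 and IER2 were higher in clone 37 in 3 of 3 libraries, while the EGR3 libraries overlapped. EGR3 was not called with DESeq2 (adjusted p = 0.0686), nor IER2 on unstranded counts (0.337). Read length differs between these 2 groups and cannot be told apart from the clone.

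Counts on the strand opposite to 2 members were above those of parental cells in every clone 15 library, as they were for 16.0% of the 17703 genes tested, so the number of members is near the background. Clone 15 libraries had 92.6% to 93.0% of stranded gene counts on the transcript strand, clone 37 libraries 92.8% to 93.0% and parental libraries 93.2% to 94.0%. Opposite to FOSB the mean in clone 15 was 0.338 CPM (27 counts), where the highest parental library had 0.230 CPM. The mean in clone 37 was 0.314 CPM (11 counts), with a lowest library of 0.183 CPM that was not above parental. Opposite to EGR1 it was 0.310 CPM (26 counts), where parental libraries had 0 counts, which allow up to 0.0794 CPM over the group (3 counts, counting error only). Clone 37 had 0.0540 CPM opposite to EGR1, from 2 counts.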

How the results depend on the processing

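The number of members called stayed between 4 and 6 in clone 37 against parental, 4 and 5 in clone 15 against parental and 3 and 5 between the clones over 16 alternatives each (5, 4 and 4 as reported), and within 5 to 6, 4 to 4 and 4 to 5 when each replicate was left out. The share of all genes called fell to 27.3%, 25.8% and 30.4% with no filter on low counts, where 5, 4 and 4 members were called and so lay above it, while DESeq2 called 7237 of 32740, 7941 of 34820 and 8969 of 34801 genes (35.1%, 35.3% and 37.7% of those to which it gave an adjusted p) and 4, 4 and 3 members. Of 207 alternative values of the 13 called differences, 204 kept direction and call, 3 lost the call and 0 reversed. The 3 were FOSB in clone 37 and EGR3 between the clones with DESeq2 (-0.86 and -1.13; adjusted p = 0.0574 and 0.0686) and IER2 between the clones on unstranded counts (0.46; 0.337). EGR3 was not tested under the filter of 1 CPM in 3 libraries in the comparisons of clone 37, where fewer than 3 libraries reached 1 CPM. On unstranded counts it was not tested in clone 37 against parental either. The cause of the 3 lost calls was not tested.

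All reversals were of differences that had not passed, the largest of them EGR3 in clone 15 (0.31 as reported) and FOSL1 between the clones (-0.25). On unstranded counts IER3 in clone 37 became 0.025, and between the clones FOSL1 became 0.007 and JUNB 0.054. Thinning took IER2 in clone 15 to 0.001. Without GC and length trends JUNB and EGR1 between the clones became 0.002 and 0.040. Leaving out each replicate gave ranges of -0.073 to 0.179 for JUN in clone 37, of -0.263 to 0.055 for JUNB, -0.138 to 0.098 for IER2 and -0.132 to 0.603 for EGR3 in clone 15, and of -0.170 to 0.134 for JUNB and -0.206 to 0.005 for EGR1 between the clones. Replicate numbers did not pair the samples (correlations of same-numbered deviations from -0.18 to 0.03), and with the replicate block 5, 4 and 4 members were called, as without it. With no filter on low counts the median of all genes moved to 0.135 in clone 15 and -0.121 between the clones. FOS rests on as few as 12 counts per library in clone 37 and EGR3 on 6, which limits the precision of their values.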
